A study of Rattus norvegicus with 18 samples.

Results

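The miR-132 and miR-212 cluster was followed through 18 small RNA libraries of rat heart. Its members were taken by name as the rows rno-miR-132-3p and rno-miR-132-5p, the arms of the first hairpin, and rno-miR-212-3p and rno-miR-212-5p, the arms of the second. They make up 4 of the 599 mature miRNAs in the deposited values. The libraries came from WKY rats (Wistar Kyoto, labelled normal), SHR (spontaneously hypertensive rats, labelled hypertension) and SHR given QDG (labelled QDG treatment), with 6 libraries in each group. The design text says that SHR received NS or QDG, but what NS and QDG stand for is not stated in the labels, nor are the age and sex of the animals or the dose and duration of treatment. Strain, blood pressure and handling cannot be told apart between WKY and SHR, since each group holds a single strain and condition. The labels do not tie each library to its own rat, so the p-values measure the spread between libraries, whether it is technical or biological.

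A miRNA is cut from a hairpin precursor, and either arm of the hairpin, named 5p or 3p, can be loaded into an Argonaute protein. There it guides silencing of messages that pair with its seed, bases 2 to 8. The miR-132 and miR-212 hairpins lie next to each other, are made from a common transcript that responds to the transcription factor CREB, and are best known from neurons. In the heart the family is known for driving growth of heart muscle cells and for repressing the anti-hypertrophic factor FoxO3, and miR-132 has been studied as a drug target in heart failure.

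The mature sequences are shown because the 3p arms of the 2 hairpins share a seed and the 5p arms do not. They are from RefSeq (rat assembly GRCr8, plus strand), written 5′ to 3′ with the seed in capitals, and all 4 members were matched by name.
miR-132-3p: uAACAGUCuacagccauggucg
miR-212-3p: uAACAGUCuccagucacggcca
miR-132-5p: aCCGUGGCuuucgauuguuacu
miR-212-5p: aCCUUGGCucuagacugcuuacug
Both 3p arms carried the seed AACAGUC, and no other rat miRNA in the 693 mature sequences of the table shared it. Over their 22 bases they were identical at 17 positions and differed at 5, as A10C, C14U, U17C, U20C and G22A, with positions counted from the 5′ end and the miR-132-3p base first. The seeds of the 5p arms differed by G4U, counted in the same way from miR-132-5p to miR-212-5p. No mature sequence outside the cluster carried either 5p seed. The miR-212 arms lie at chr10:60521771-60521794 (5p) and chr10:60521811-60521832 (3p), and the miR-132 arms at chr10:60522055-60522076 (5p) and chr10:60522091-60522112 (3p). Only 222 bases separate miR-212-3p from miR-132-5p. In this annotation 0 other genes overlap the 2 hairpins, whose neighbours are Hic1, a transcriptional repressor, on one side and the long noncoding RNA gene LOC120095261 on the other.

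The miR-132 hairpin (Mir132, GRCr8 chr10:60522033-60522133, plus strand) shows how the arms are placed, with miR-132-5p and miR-132-3p in capitals and 14 bases between them.
Mir132: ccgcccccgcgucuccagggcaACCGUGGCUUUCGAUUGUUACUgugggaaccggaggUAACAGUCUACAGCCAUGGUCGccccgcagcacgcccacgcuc

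Levels are given as normalized reads per 1000000 (RPM), the authors' scale. The libraries held 6420666 to 10169581 miRNA reads, and 1 read was worth 0.135 to 0.225 RPM. The 8 heart muscle miRNAs checked against the tissue label, among them miR-1-3p and miR-208a-3p, were above 0 in every library and summed to 492525 to 625613 RPM. SHR replicate 5 held the highest level of each of the 4 arms, so results with SHR are given with and without it where it matters.

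The cluster was scarce in these hearts. Its 4 arms together averaged 21.0 ± 4.32 RPM in the WKY libraries, 38.5 ± 13.4 in those of SHR and 34.5 ± 5.38 in those of QDG (SD, n = 6 each), or 0.00143%, 0.00274% and 0.00245% of the pooled miRNA reads. By mean level, miR-132-5p ranked 228, miR-132-3p 245, miR-212-5p 286 and miR-212-3p 405 among the 410 miRNAs tested. Each arm had at least 1 read in 18 of 18 libraries. In bulk tissue, fewer cells of a type that makes a miRNA and less of it per cell cannot be told apart.

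miR-132-3p, the arm usually regarded as the active guide, had 4.88, 6.10, 7.92, 8.70, 7.60 and 7.80 RPM in WKY replicates 1 to 6, from 32 to 48 reads a library. In SHR replicates 1 to 6 it had 13.0, 9.58, 7.46, 10.3, 24.1 and 13.0 RPM, from 38 to 138 reads. In QDG replicates 1 to 6 it had 12.4, 9.91, 10.8, 12.9, 12.7 and 12.6 RPM, from 48 to 77 reads. Of the SHR libraries 5 of 6 lay above every WKY library, replicate 3 fell inside the WKY range, and replicate 5 stood far above the rest. The QDG libraries were close together and all lay above the WKY libraries.

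miR-132-5p, its partner arm, had 6.25, 9.61, 9.73, 13.5, 11.4 and 8.46 RPM in WKY replicates 1 to 6. In SHR replicates 1 to 6 it had 20.5, 17.1, 17.7, 12.5, 26.4 and 14.2 RPM. In QDG replicates 1 to 6 it had 17.5, 12.6, 17.4, 14.0, 15.3 and 21.4 RPM. SHR and QDG each overlapped WKY through a single library on their side, SHR replicate 4 and QDG replicate 2, both under WKY replicate 4. It was the most abundant of the arms, with 39 to 151 reads a library.

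miR-212-5p had 3.05, 4.07, 2.97, 5.59, 3.13 and 2.82 RPM in WKY replicates 1 to 6. In SHR replicates 1 to 6 it had 8.54, 5.47, 5.50, 3.60, 10.3 and 4.73 RPM. In QDG replicates 1 to 6 it had 5.43, 3.10, 5.51, 6.18, 4.70 and 6.57 RPM. WKY replicate 4 lay inside the range of SHR and of QDG, and only 2 of 6 libraries in each of those groups exceeded it. The counts were 13 to 59 reads a library.

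miR-212-3p, with the same seed as miR-132-3p, was near the limit of detection. It had 4, 2, 1, 1, 3 and 2 reads in WKY replicates 1 to 6, 5, 8, 1, 4, 16 and 6 in SHR, and 7, 1, 1, 9, 6 and 11 in QDG. These reads correspond to 0.165 to 0.671 RPM in WKY, 0.196 to 2.79 in SHR and 0.206 to 2.01 in QDG. A single read in SHR replicate 3 and in QDG replicates 2 and 3 put those libraries at the lower end of WKY. The miRNA passed the filter on low values (1 RPM in at least 6 libraries) through 3 SHR and 4 QDG libraries and 0 WKY libraries, so its presence among the tested miRNAs already depended on the groups where it was higher.

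**Figure D1:**
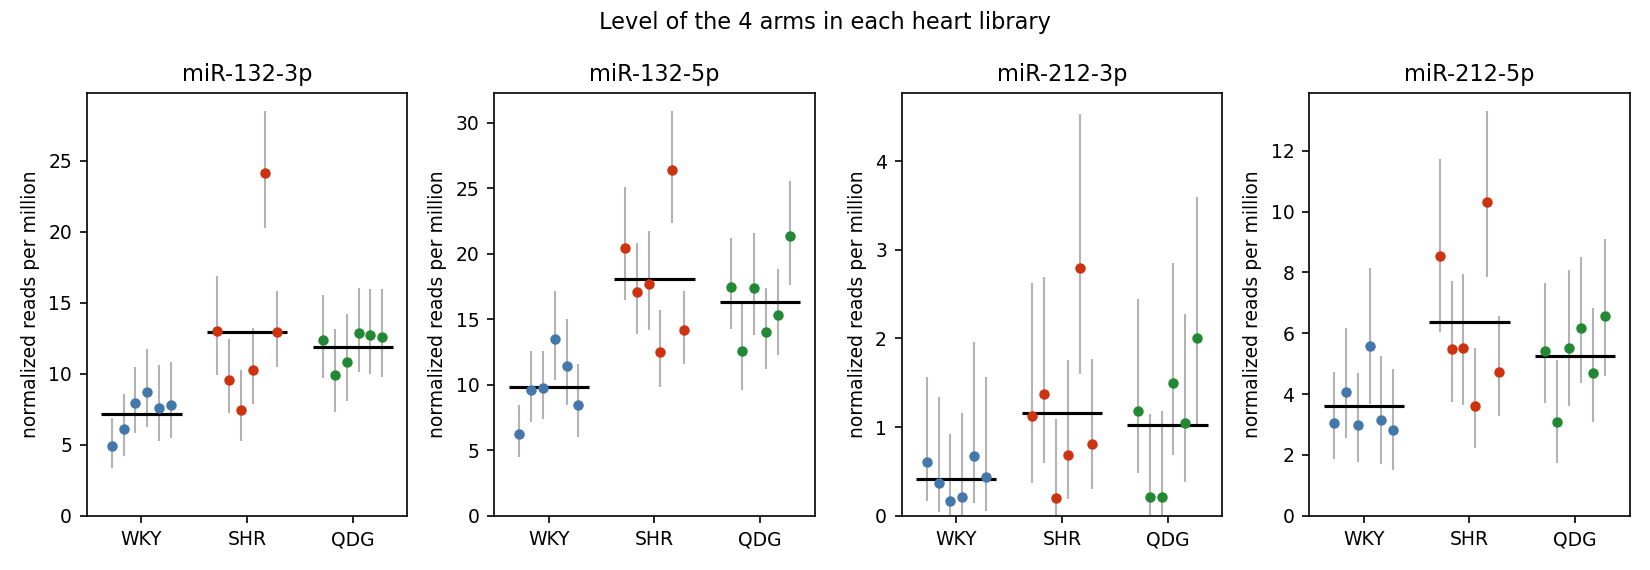
Level of each arm (RPM, linear axes from 0) in the 6 libraries of WKY, SHR and QDG, with replicates 1 to 6 from left to right, the group mean as a black line and the exact Poisson 95% interval of each library's reads in grey, which covers counting error only. For miR-132-3p all QDG points lie above all WKY points, and SHR replicate 5, at 24.1 RPM, lies above every other library.

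The spread within a group was set against counting error. In WKY, miR-212-3p had a coefficient of variation of 50.2%, while counting alone gives 67.9% at its mean number of reads. For miR-132-3p in SHR the same values were 45.6% and 11.6%, and in QDG 10.3% and 12.4%. Without SHR replicate 5, a choice made after seeing the data, they were 22.2% and 12.7% in SHR. The chi-square of its reads against equal levels in a group, per degree of freedom, was 15.0 in SHR (2.88 without replicate 5) and 0.632 in QDG, where counting error alone gives values near 1. On the log2(RPM + 1) scale the within-group SD was 0.36 for miR-132-3p, 0.32 for miR-132-5p, 0.38 for miR-212-5p and 0.47 for miR-212-3p, against a median of 0.25 over all tested miRNAs.

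The comparison of SHR with WKY asks what differs in the hypertensive strain, and here both miR-132 arms and miR-212-5p were higher in SHR. miR-132-5p averaged 9.82 ± 2.47 RPM in WKY and 18.1 ± 4.93 in SHR (SD, n = 6 each), a ratio of means of 1.84. miR-132-3p averaged 7.17 ± 1.40 and 12.9 ± 5.88 RPM, a ratio of 1.80. miR-212-5p averaged 3.60 ± 1.07 and 6.36 ± 2.54 RPM, a ratio of 1.76. miR-212-3p averaged 0.409 ± 0.206 and 1.16 ± 0.894 RPM, a ratio of 2.84 that rests on 13 reads in all of WKY and 40 in all of SHR (ratio of pooled reads 2.86, 95% counting interval 1.499 to 5.83).

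Changes were tested with limma, a linear model with moderated variances, on log2(RPM + 1) over all 410 miRNAs, with Benjamini-Hochberg adjustment. The pseudocount of 1 shrinks the change of scarce miRNAs. On this scale the difference, SHR minus WKY, was 0.81 ± 0.17 for miR-132-5p (SE, limma adjusted p = 0.000687) and 0.70 ± 0.19 for miR-132-3p (adjusted p = 0.00684), and 6 of 6 SHR libraries lay above the WKY mean for each. It was 0.64 ± 0.20 for miR-212-5p (adjusted p = 0.0192, 5 of 6 libraries) and 0.54 ± 0.25 for miR-212-3p (adjusted p = 0.121, 5 of 6 libraries). Thus 3 of 4 arms passed a threshold of 0.05, all 3 upward, where 23.2% of all tested miRNAs passed in either direction and 8.05% were called higher. Over all miRNAs 33 were called higher and 62 lower, a balance that depended on the scaling (46 and 47 with relative log expression, RLE, 49 and 38 with upper quartile scaling). The median of the 4 arms was 0.67, beside -0.07 over all tested miRNAs. miR-212-3p passed the filter only through SHR and QDG libraries. Its difference, its part in this median and its place by size of rise are therefore no support for a rise. None of the arms was free of overlap between the groups, which 10.2% of tested miRNAs were. Ordered by size of rise among the 410, miR-132-5p stood at place 11 and its partner arm at 14, while miR-212-5p was at 17 and miR-212-3p at 20.

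SHR replicate 5 took part in the size of these differences. Without it miR-132-3p averaged 10.7 ± 2.37 RPM in SHR (n = 5), a ratio to WKY of 1.49, with a log2 difference of 0.51 and a limma adjusted p of 0.0208. miR-132-5p kept 0.70 (adjusted p = 0.00311). miR-212-5p lost its call without SHR replicate 5 (0.50, adjusted p = 0.0604) and also without SHR replicate 1 (0.55, adjusted p = 0.0565). For miR-212-3p, never called in limma with all libraries, the difference fell to 0.36 without SHR replicate 5 (adjusted p = 0.331). It passed without SHR replicate 3, the library with 1 read (0.69, adjusted p = 0.0387), and in DESeq2 on the recovered reads (1.57, adjusted p = 0.0489), while edgeR gave 1.5 (adjusted p = 0.0605) and limma-voom 1.17 (adjusted p = 0.172). DESeq2 called 23.4% and edgeR 21.7% of the tested miRNAs. miR-212-3p was among those tested only through SHR and QDG libraries, so its calls here are no support for a rise.

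**Figure D2:**
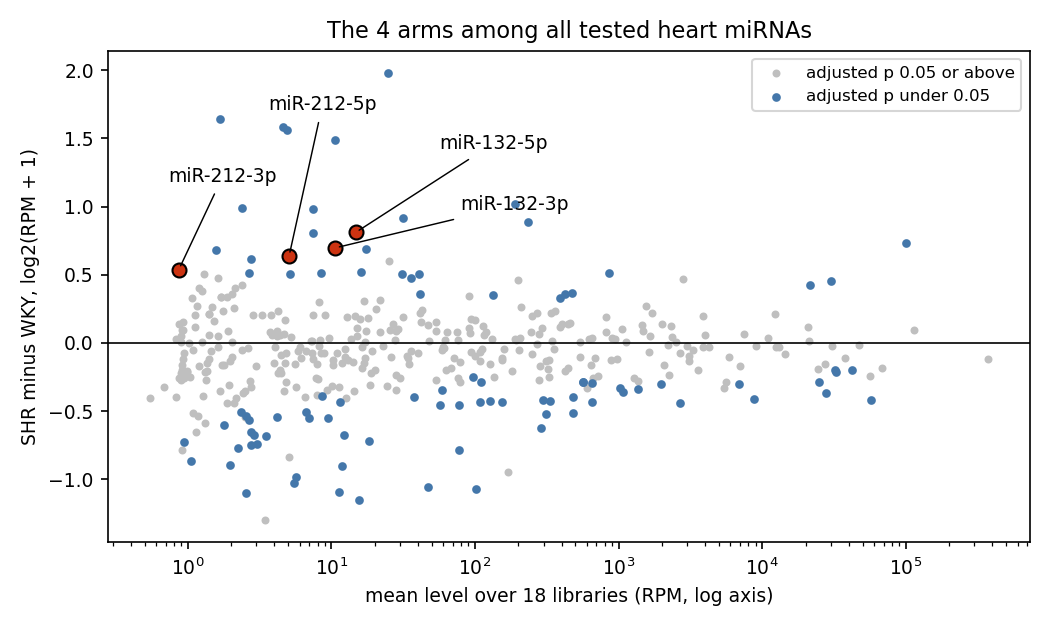
Difference in log2(RPM + 1), SHR minus WKY, against the mean level over the 18 libraries (log axis) for all 410 tested miRNAs, with those of adjusted p under 0.05 in blue and the 4 arms as large red points. The arms lie in the lower range of levels, between 0.866 and 14.7 RPM, and all have differences between 0.54 and 0.81.

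The comparison of QDG with SHR asks whether treatment moved the cluster within the hypertensive strain, and no difference was detected. Mean levels were 11.9 ± 1.22 RPM in QDG beside 12.9 ± 5.88 in SHR for miR-132-3p, and 16.4 ± 3.10 beside 18.1 ± 4.93 for miR-132-5p (SD, n = 6 each). They were 5.25 ± 1.24 beside 6.36 ± 2.54 RPM for miR-212-5p and 1.03 ± 0.714 beside 1.16 ± 0.894 for miR-212-3p. The log2 differences, QDG minus SHR, were -0.03 (95% interval -0.41 to 0.35) for miR-132-3p, -0.11 (-0.47 to 0.24) for miR-132-5p, -0.20 (-0.60 to 0.21) for miR-212-5p and -0.08 (-0.59 to 0.43) for miR-212-3p, each with a limma adjusted p of 0.983. The intervals are for single miRNAs, and they leave room for a fall of miR-132-3p to 0.754 of its SHR level or a rise to 1.28 times it, both on the RPM + 1 scale. In this comparison 0 of 4 arms passed, as did 0% of the 410 miRNAs in limma, and edgeR and DESeq2 also called 0, while 15 miRNAs (3.66%) had an unadjusted limma p under 0.05, with none of the arms among them.

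The small differences between QDG and SHR changed when single libraries were left out. Without SHR replicate 5 miR-132-3p averaged 10.7 ± 2.37 RPM in SHR and the log2 difference became 0.16. That of miR-212-3p became 0.10, while miR-132-5p had -0.00263 and miR-212-5p -0.06. Without QDG replicate 2 the difference was 0.02 for miR-132-3p and 0.05 for miR-212-3p.

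QDG treated SHR were also set against WKY, using the same WKY libraries as the first comparison, so the 2 sets of differences are not independent. miR-132-3p was 0.67 ± 0.19 higher on the log2 scale in QDG (SE, limma adjusted p = 0.01001, 6 of 6 libraries above the WKY mean), a ratio of means of 1.66. miR-132-5p was 0.70 ± 0.17 higher (adjusted p = 0.00390, 6 of 6 libraries), a ratio of 1.67. miR-212-5p had 0.44 ± 0.20 (adjusted p = 0.127) and miR-212-3p 0.45 ± 0.25 (adjusted p = 0.224), with 5 of 6 and 4 of 6 QDG libraries above the WKY mean. Thus 2 of 4 arms passed, where 17.8% of tested miRNAs passed in either direction and 7.32% were called higher (30 higher and 43 lower, 42 and 40 with RLE scaling, 55 and 28 with upper quartile scaling). miR-132-3p was free of overlap between QDG and WKY, as were 3.9% of tested miRNAs in the upward direction. That miR-212-5p was called in SHR and not in QDG does not show that the groups differ, and its direct comparison is the one given above. It passed in QDG under upper quartile scaling (0.53, adjusted p = 0.0477).

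**Figure D3:**
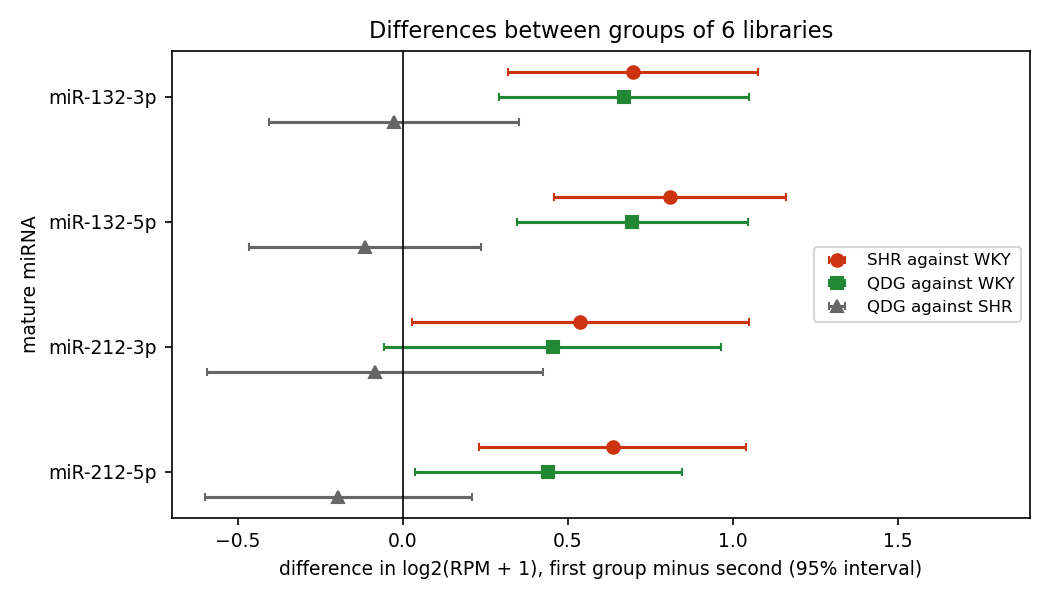
Difference in log2(RPM + 1) of each arm between 2 groups of 6 libraries, with its 95% interval from limma (not adjusted for the number of miRNAs). For the miR-132 arms the intervals of SHR against WKY and of QDG against WKY lie above 0, and those of QDG against SHR include 0 for all 4 arms.

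In every group the arms stood in the same order, with miR-132-5p highest, miR-132-3p next, then miR-212-5p, and miR-212-3p lowest. In each arm the mean was lowest in WKY, intermediate in QDG and highest in SHR, and QDG and SHR did not differ beyond their spread. Without SHR replicate 5 the order of QDG and SHR turned for miR-132-3p (11.9 against 10.7 RPM) and miR-212-3p (1.03 against 0.837 RPM).

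The balance between the arms was read from the recovered reads of each library, as the 3p share of both arms. These are shares of reads, and different sequences need not be captured equally in a library, so they are not shares of molecules. miR-132-5p outnumbered miR-132-3p in 18 of 18 libraries, although the 3p arm is the one usually named as the guide. The 3p share was 42.5 ± 3.69% in the WKY libraries, 40.9 ± 7.30% in those of SHR and 42.4 ± 4.15% in those of QDG (SD, n = 6 each). Over all libraries it was 1062 of 2514 reads, or 42.2% (exact 95% binomial interval 40.3 to 44.2%, counting error only). Among 126 hairpin names with both arms tested, miR-132 was in place 15 by evenness of its arms, and the median share of the lesser arm was 9.51%. The 5p arm held more reads in 70 of those 126.

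For miR-212 the 5p arm outnumbered the 3p arm in 18 of 18 libraries by a wider margin. The 3p share was 10.8 ± 5.94% in WKY, 14.5 ± 6.47% in SHR and 14.8 ± 7.93% in QDG, and 88 of 588 reads or 15.0% over all libraries (exact 95% binomial interval 12.2 to 18.1%). The hairpins divided the reads of the cluster in nearly fixed proportion, since miR-132 held 80.7 ± 3.76% of them in WKY, 80.9 ± 2.48% in SHR and 82.1 ± 3.22% in QDG. None of these 3 shares was found to differ between any 2 groups in 9 exact permutation tests, two-sided and with 6 libraries a group (exact p from 0.318 to 0.963, adjusted p = 0.963 for each, smallest possible p 0.00216). The largest difference was 4.04 percentage points, for the miR-212 3p share in QDG against WKY, and in WKY that share rests on 13 of 127 reads (exact 95% binomial interval 5.56 to 16.9%).

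**Figure D4:**
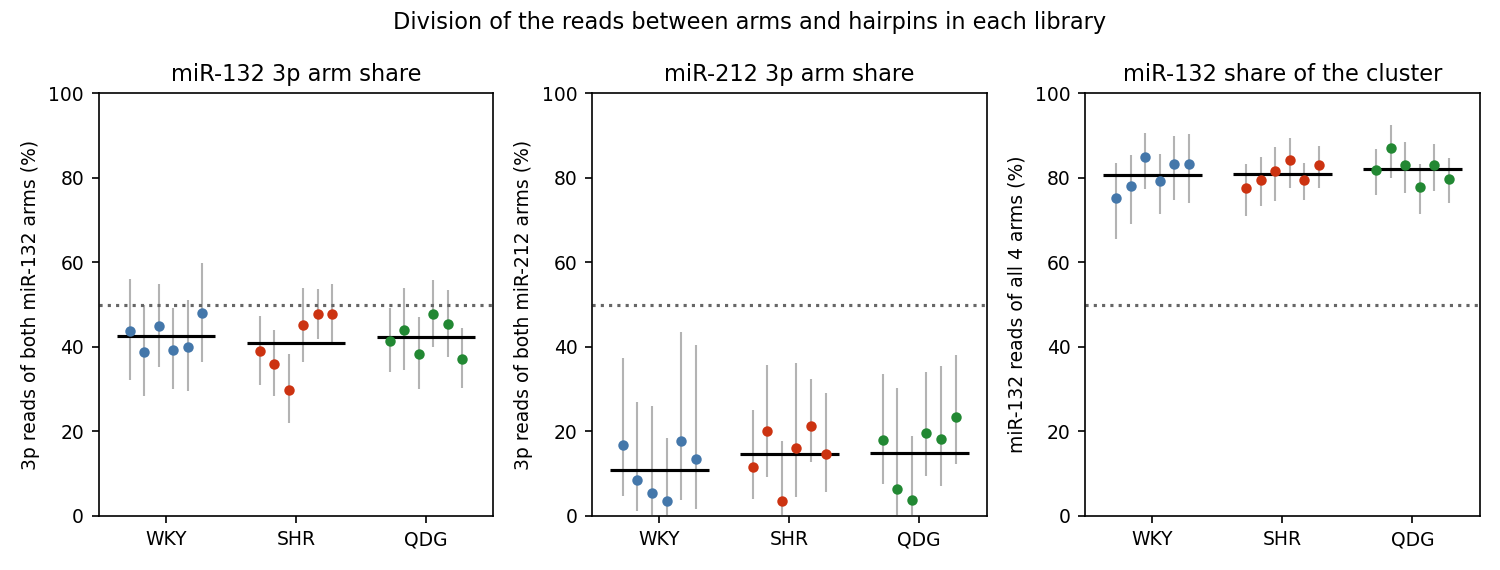
Share of reads in each library (percent, axis from 0 to 100) for the 3p arm of miR-132, the 3p arm of miR-212, and miR-132 among all 4 arms, with group means as black lines, exact 95% binomial intervals in grey and 50% as a dotted line. All 18 libraries lie under 50% in the first 2 panels, and in the last all lie between 75.3 and 87.2%.

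Whether the arms moved together from library to library was read from log2(RPM + 1) after subtracting each group's mean, over the 18 libraries, in 6 pairs of arms. The closest pair crossed the hairpins: miR-132-5p and miR-212-5p had Pearson's r = 0.81 (permutation within groups, adjusted p = 0.00126) and Spearman's rho = 0.74 (adjusted p = 0.00678), and r = 0.82 without the 2 libraries farthest out, WKY replicate 1 and SHR replicate 5 (0.75 without SHR replicate 5 alone). Taken group by group, r was 0.66 for WKY, 0.97 for SHR and 0.72 for QDG. The arms of the miR-132 hairpin had r = 0.62 (permutation adjusted p = 0.0332) and rho = 0.47 (adjusted p = 0.169), with r = 0.62 without SHR replicates 3 and 5 and 0.44 without SHR replicate 5 alone.

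For the 3p arms, which share a seed, r was 0.61 (permutation adjusted p = 0.0332) but rho 0.29 (adjusted p = 0.253). The pooled r fell to 0.16 without SHR replicates 3 and 5 and to 0.35 without SHR replicate 5 alone. By group, over 6 libraries each, it was -0.54 for WKY, where miR-212-3p had 1 to 4 reads, 0.88 for SHR and 0.91 for QDG. miR-132-3p with miR-212-5p had r = 0.59 (permutation adjusted p = 0.0492), rho = 0.40 (adjusted p = 0.217), and r = 0.46 without SHR replicates 3 and 5 (0.36 without SHR replicate 5 alone). The arms of miR-212 had r = 0.53 (permutation adjusted p = 0.0576) and rho = 0.45 (adjusted p = 0.169), with r = 0.39 without SHR replicates 3 and 5 (0.34 without SHR replicate 5 alone). miR-132-5p with miR-212-3p had r = 0.38 (permutation adjusted p = 0.135) and rho = 0.30 (adjusted p = 0.253), with r = 0.31 without WKY replicate 1 and SHR replicate 5 (0.15 without SHR replicate 5 alone). All arms of a library share its scaling, and the part of that in these correlations was not tested. After group means were subtracted, the median r of miR-132-3p with all other tested miRNAs was 0.19. This median was not computed for the other arms, so the closest pair, miR-132-5p with miR-212-5p, has no such background beside it.

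**Figure D5:**
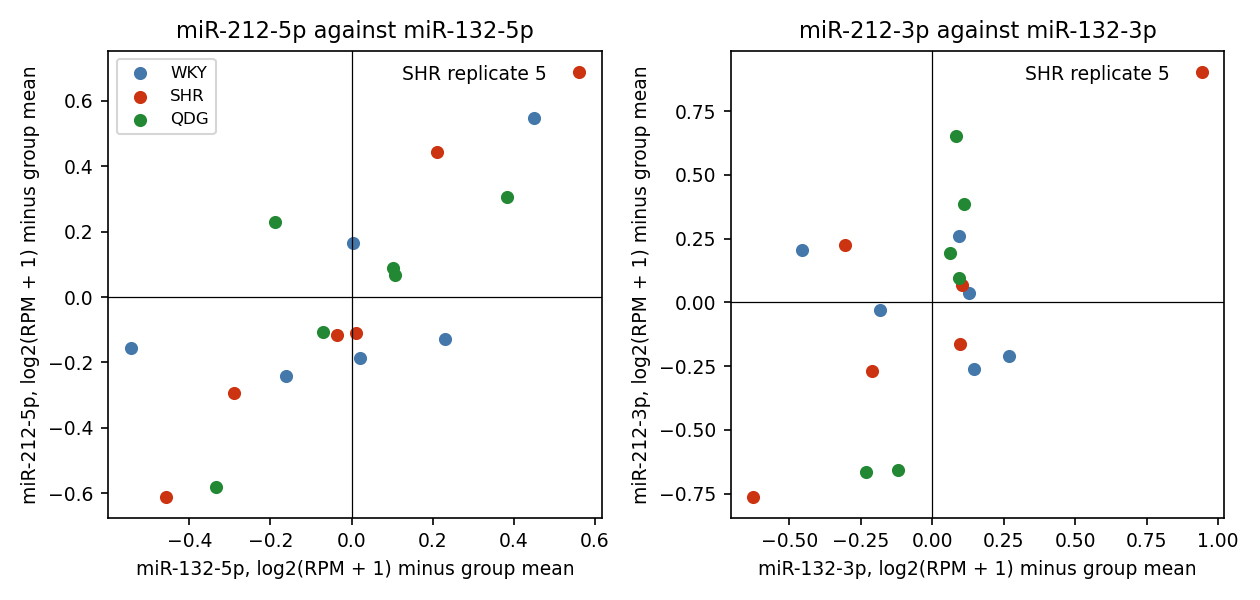
Deviation of each library from its group mean in log2(RPM + 1), for miR-212-5p against miR-132-5p and for miR-212-3p against miR-132-3p, with WKY, SHR and QDG libraries in blue, red and green. The 5p arms rise together (r = 0.81), and the 3p arms have r = 0.61, or 0.16 without SHR replicates 3 and 5.

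Outside the cluster, the miRNAs whose levels most resembled miR-132-3p over the 18 libraries were miR-331-3p (r = 0.85), miR-146b-3p (r = 0.82), miR-21-5p (r = 0.81), miR-221-3p (r = 0.81) and miR-34a-5p (r = 0.81). These values describe the libraries, 12 of which are SHR or QDG, and therefore include the strain difference. With group means subtracted they were 0.70, 0.66, 0.62, 0.68 and 0.66. Of the arms, miR-132-5p had r = 0.82, miR-212-5p 0.75 and miR-212-3p 0.72 before this subtraction, where miR-132-5p was second among all miRNAs. With group means subtracted the arms had 0.62, 0.59 and 0.61. These lay below the values of miR-331-3p, miR-146b-3p, miR-221-3p and miR-34a-5p. miR-21-5p is abundant in fibroblasts and miR-34a-5p is a target of p53. All 5 miRNAs outside the cluster were higher in SHR than in WKY, by 0.36 (miR-221-3p) to 1.02 (miR-34a-5p) on the log2 scale (limma adjusted p from 1.09e-08 to 0.0308). They were chosen by an r that includes the strain difference, so a rise in SHR was partly built into the choice. It is not separate support. The calls of miR-221-3p and miR-146b-3p were lost without SHR replicate 5 (adjusted p = 0.0900 and 0.0964), without WKY replicate 1 (0.0590 and 0.0629), and for miR-221-3p without WKY replicate 6 (0.0593). That of miR-146b-3p was also lost on leaving out WKY replicate 3 (0.0830), WKY replicate 5 (0.0624), or from SHR replicate 1 (0.0616) or 2 (0.0694).

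miRNAs reported to promote growth of heart muscle cells, the cluster left out, were taken as a list of 20, of which 19 were tested. In SHR against WKY 5 rose and 0 fell, where 33 of all 410 tested were called higher (8.05%) and 62 lower, with a median of 0.03 on the log2 scale beside -0.07 over all tested miRNAs. The counts of the lists that follow are to be read against these and, for QDG against WKY, against 30 higher and 43 lower of 410. Among the called, the largest rises were 1.02 ± 0.10 for miR-34a-5p (SE, limma adjusted p = 1.09e-08), 0.89 ± 0.16 for miR-208b-3p, encoded in the gene of beta-myosin heavy chain (adjusted p = 0.000132), and 0.48 ± 0.14 for miR-155-5p, known from activated macrophages and lymphocytes (adjusted p = 0.0128). The called also included miR-21-5p and miR-221-3p, which like miR-34a-5p were already named above as most like miR-132-3p. Differences of the members not called ran from -0.33 (miR-206-3p, limma adjusted p = 0.0698) to 0.51 (miR-21-3p, adjusted p = 0.126). In QDG against SHR 0 of 19 changed, and in QDG against WKY 4 rose and 0 fell (under 5 other scalings 5 to 7 rose in SHR against WKY and 4 to 7 in QDG against WKY, and 0 fell). Thus the miR-132 arms were intermediate in size of rise, under miR-34a-5p and, for miR-132-5p at 0.81, close to miR-208b-3p.

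Of 20 miRNAs reported to restrain such growth, all tested, 2 rose and 5 fell in SHR against WKY (median -0.19), 0 changed in QDG against SHR, and 2 rose and 1 fell in QDG against WKY. The rises in SHR were 0.74 ± 0.08 for the muscle miRNA miR-1-3p (SE, limma adjusted p = 3.34e-08) and 0.45 ± 0.09 for miR-378a-3p (adjusted p = 0.000326). miR-1-3p averaged 70589 RPM in WKY and 117240 in SHR. The more abundant miR-1b, also in the list, averaged 395414 RPM in WKY and 363996 in SHR. It did not pass (-0.12, limma adjusted p = 0.243), and the sum of miR-1-3p and miR-1b was not tested. Among the called, the largest falls were -0.40 ± 0.11 for miR-29b-3p, a repressor of collagen messages (adjusted p = 0.00711), -0.30 ± 0.08 for miR-26b-5p (adjusted p = 0.00981) and -0.28 ± 0.09 for miR-30e-5p (adjusted p = 0.0204). The call of miR-26b-5p was lost under upper quartile scaling (adjusted p = 0.0799), and that of miR-30e-5p under RLE and upper quartile scaling (0.0600 and 0.125) and without WKY replicate 5 (0.0680) or SHR replicate 4 (0.0506). Under the 5 other scalings 1 to 3 of the list fell in SHR against WKY and 2 rose, and in QDG against WKY 1 to 2 fell and 2 rose. The growth list and the cluster are not independent evidence of a direction, since both were chosen with earlier results of these libraries known.

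Neuronal miRNAs, the cell type for which the cluster is best known, did not move in one direction. Of 12 tested, 2 were higher and 2 lower in SHR than in WKY (median -0.08). Under the other scalings 2 to 3 were higher and 1 to 2 lower. The summed level of the list was 1433 to 1780 RPM in WKY, 1519 to 1964 in SHR and 1588 to 1914 in QDG, so the groups overlapped. Most of this sum came from miR-128-3p, miR-9a-5p and miR-218a-5p (means of 742, 465 and 332 RPM in WKY), so it says little about the scarcer members. miR-218a-5p rose by 0.33 and miR-219a-1-3p by 0.51 on the log2 scale, and miR-129-5p (-0.55) and miR-134-5p (-0.77) fell (limma adjusted p = 0.0127, 0.0457, 0.0192 and 0.00632). All but miR-218a-5p were scarce and rest on few reads a library. Means in WKY and SHR were 2.11 and 3.31 RPM for miR-219a-1-3p, 9.53 and 6.24 for miR-129-5p, and 3.13 and 1.44 for miR-134-5p. The call of miR-219a-1-3p was lost in 12 of 18 runs that left out 1 library (limma adjusted p up to 0.114, without SHR replicate 3). It was also lost in 8 of 15 other alternatives. Among these were edgeR (adjusted p = 0.0590), DESeq2 (0.0545), the replicate block in limma (0.0744) and a pseudocount of 5 in limma (0.0566). The call of miR-129-5p was lost under upper quartile scaling (limma adjusted p = 0.0501). None of the 15 neuronal miRNAs was at 0 in all libraries. SHR replicate 5, highest in all arms of the cluster, had 1519 RPM of the neuronal list, the lowest among the SHR libraries. The same library was also lowest in the heart muscle list (511203 RPM), the red blood cell list (510 RPM) and the list reported to restrain growth (737045 RPM). It was highest in the list reported to promote growth (148796 RPM) and in the stromal list. Its leukocyte, endothelial, smooth muscle and epithelial sums lay within the range of the other SHR libraries.

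Of the other cell types, 2 of 9 leukocyte miRNAs were higher in SHR than in WKY (median of the 9 0.05), miR-146b-5p (0.51, limma adjusted p = 0.0122) and miR-155-5p, and 3 were higher in QDG than in WKY: miR-146b-5p (0.54, adjusted p = 0.00843), miR-155-5p (0.41) and miR-142-3p (0.38), the last 2 with an adjusted p of 0.0422. The other leukocyte miRNAs did not pass in SHR against WKY. Below 0 were miR-146a-5p (-0.29, limma adjusted p = 0.0698), miR-150-5p (-0.24), miR-342-3p (-0.20) and miR-142-5p (-0.13). Above 0 were miR-223-3p (0.22), miR-142-3p (0.20) and miR-223-5p (0.05). The call of miR-146b-5p in SHR was lost with WKY replicate 1 and SHR replicate 5 left out together (limma adjusted p = 0.0533). The calls of miR-155-5p and miR-142-3p in QDG against WKY were lost without several single libraries (up to 0.120 and 0.0899, both without QDG replicate 5). The summed leukocyte level was 7096 to 10173 RPM in WKY, 6807 to 8094 in SHR and 5807 to 8988 in QDG. Most of that sum was miR-146a-5p (mean of 6301 RPM in WKY). Of 6 epithelial miRNAs miR-200c-3p was higher in SHR than in WKY (0.36, adjusted p = 0.0238), a call lost on leaving out WKY replicate 1 (0.0501), WKY replicate 2 (0.0633), or from SHR replicate 1 (0.0527), 2 (0.0548) or 6 (0.0539). The other 5 did not pass, with differences of -0.40 (miR-205) to 0.06 (miR-141-3p), 4 of them below 0, and the median of the 6 was -0.27. Under TMM, RLE and upper quartile scaling 1 epithelial miRNA was also called higher in QDG than in WKY. The epithelial sum was 56.7 to 78.2 RPM in WKY and 65.2 to 90.4 in SHR, with miR-200c-3p its largest part (means of 35.3 and 45.4 RPM). None of 2 endothelial, 4 smooth muscle, 3 red blood cell and 3 stromal miRNAs tested passed in limma in any comparison, apart from 1 endothelial miRNA in QDG against WKY under upper quartile scaling. The stromal list summed to 17046 RPM in SHR replicate 5 and to 11219 to 14850 in the other SHR libraries. Of 8 heart muscle miRNAs, miR-1-3p and miR-208b-3p were higher in SHR and in QDG than in WKY. The other 6 did not pass in SHR against WKY and had differences of -0.33 (miR-133b-3p) to 0.04 (miR-133a-5p), 5 of them below 0. The median of the 8 was -0.06, and between -0.02 and 0.04 under the 5 other scalings. The part of any of these cell types in the levels of the cluster was not tested.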

How the data were processed

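Small RNA was sequenced from 18 rat heart libraries, made from 1 µg of total RNA with a NEBNext small RNA kit, per the labels' protocols. The authors deposited, per the file headers, a normalized read count for each mature miRNA, which is handled here as a signal and called RPM. FastQC, TopHat2 and limma are named without roles in the submitters' processing notes. Genome build, annotation and the treatment of reads that fit several miRNAs were not given in the sources used here. Dividing a library's values by its smallest step gave reads, and 10782 of 10782 values (100%) lay within 0.01 of a whole number. The recovered miRNA reads exceeded the divisor behind the authors' scale (134 to 151% of it), so the values of a library sum to more than 1000000.

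The 410 of 599 miRNAs that reached 1 RPM in 6 or more libraries were tested with limma 3.58.1 in R 4.3.3 on log2(RPM + 1), all 18 libraries in a single fit with variance trend and robust moderation, adjusted by Benjamini-Hochberg at 0.05. On the recovered reads edgeR 4.0.16 called 89, 0 and 83 miRNAs in SHR against WKY, QDG against SHR and QDG against WKY, and DESeq2 1.42.0 called 96, 0 and 87, beside 95, 0 and 73 in limma. Shares were compared with exact permutation tests, and correlations with 100000 permutations within groups. No 2 libraries of a group agreed within sampling noise.

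The members, lists and tests were chosen with earlier results of these data known. Named miRNAs are the 4 members, the 5 most like miR-132-3p, up to 3 called members in each direction of the growth lists in SHR against WKY, and called cell type markers. Alternatives were other pseudocounts, filters, scalings, tools, a replicate block and leaving out libraries.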

Additional observations from a re-analysis of the deposited data

Results flagged for a closer look

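SHR replicate 5 was far from the other libraries of its group in miR-132-3p, with 24.1 RPM where the other 5 SHR libraries lay between 7.46 and 13.0 RPM. The gap to the nearest library was 0.665 of the range of the group, above the 0.625 that Dixon's test allows for 6 samples. Of 21 sets of 6 libraries examined this way (4 arms and 3 shares in 3 groups), 1 was marked, and chance marks about 1 in 20. Its 138 reads give a 95% Poisson interval of 20.2 to 28.5 RPM, above the other SHR values.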

How the results depend on the processing

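Of 402 recomputed changes of the 4 arms, 389 kept their direction and their side of the threshold, and the miR-132 arms passed against WKY, in SHR and in QDG, under every alternative run. The 402 include runs without a library of the group outside the comparison, where the difference cannot change and only the adjusted p can. Leaving out 1 library gave, in SHR against WKY, 0.51 to 0.82 for miR-132-3p, 0.70 to 0.90 for miR-132-5p, 0.36 to 0.69 for miR-212-3p and 0.50 to 0.76 for miR-212-5p. In QDG against SHR it gave -0.15 to 0.16 for miR-132-3p and -0.24 to 0.10 for miR-212-3p, both of which changed sign without SHR replicate 5 (0.16 and 0.10) and without QDG replicate 2 (0.02 and 0.05), and miR-212-3p without QDG replicate 3 (0.05). With WKY replicate 1 and SHR replicate 5 left out together, miR-132-3p and miR-212-3p again had 0.16 and 0.10 in QDG against SHR, miR-212-5p lost its call in SHR against WKY (0.47, limma adjusted p = 0.0950), and miR-132-3p had 0.42 (0.0429). DESeq2 called miR-212-3p, tested only through its SHR and QDG libraries, in SHR against WKY (1.57). Upper quartile scaling called miR-212-5p in QDG against WKY (0.53). The cause was not tested. The change of miR-212-3p in SHR against WKY depended on the pseudocount by its construction, 0.74 with 0.5 and 0.18 with 5, and it has no value at the filter of 10 RPM. The counts of called miRNAs stayed within 1.5 times in all 102 recomputations, with 66 to 106 in SHR against WKY. In QDG against SHR the count was 0 in the main fit and under every alternative, which was counted as unchanged.

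The miR-132 and miR-212 shares, never called, changed sign in 19 of 126 recomputations, each with 1 library left out. The ranges were -2.99 to 0.628 percentage points (miR-132 3p share, SHR against WKY), -0.736 to 2.88 (QDG against SHR) and -1.20 to 0.9998 (QDG against WKY), -1.88 to 2.56 (miR-212 3p share, QDG against SHR), and -0.873 to 1.06 (miR-132 share of the cluster, SHR against WKY).

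Replicate numbers recur in the titles. Same-numbered libraries deviated together with r over 0.1 in 7 of 18 pairs (-0.17 to 0.23), and 4 of 18 correlated best with their own number. Between WKY and QDG the same-numbered r ran from 0.00412 to 0.202, and between SHR and QDG from -0.127 to 0.120. The main fit treated the libraries as unpaired, and whether same-numbered libraries share a batch was not tested. With the replicate block, 93, 0 and 77 miRNAs were called, miR-132-3p had an adjusted p of 0.00526 and miR-212-5p of 0.0346 in SHR against WKY, and no call of an arm changed. Other scalings raised the share of higher calls in SHR against WKY from 34.7% to between 40.9 and 56.3%; scaling to all miRNA reads (40.9%) was chosen after seeing the data, as were the alternatives for miRNAs outside the cluster, of which 1026 of 1116 kept their call. Depth limits miR-212-3p, with 1 to 16 reads a library.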
